A study of Homo sapiens with 18 samples.

Results

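Human N/TERT2G keratinocytes transduced with Ad-TEADi were compared with the same cells transduced with Ad-GFP, both harvested 24 h after transduction. The libraries were taken by their labels, 3 for Ad-TEADi and 3 for Ad-GFP, which is 6 of the 18 libraries of the series. The other 12 libraries held the same pair of viruses at 12 and 48 h. N/TERT2G is a single line of keratinocytes immortalized with telomerase. Ad-TEADi is an adenovirus that carries a nuclear fusion of green fluorescent protein (GFP) with the TEAD-binding stretches of VGLL4, YAP1 and TAZ, and it was built to block TEAD transcription factors from their coactivators. Ad-GFP is an adenovirus that carries GFP alone, so both groups received virus and GFP, at a multiplicity of infection of 25, and neither group was left without virus. The comparison asked which transcripts had already moved at the middle time, between a 12 h comparison with few changes and a 48 h comparison with many.

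TEAD proteins bind DNA and depend on coactivators for their activity. The best known of these are YAP1 and TAZ, which the kinases of the Hippo pathway hold in the cytoplasm and mark for destruction when cells are crowded. In the epidermis, YAP1 and TAZ act in the dividing cells of the basal layer, and their exit from the nucleus accompanies the move into the layers above, where cells make the keratins, envelope precursors and lipids of the barrier.

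Levels are the deposited TMM normalized CPM, which are read counts scaled to library size, listed for replicates 1, 2 and 3 in that order. A change is given as the log2 ratio, Ad-TEADi to Ad-GFP, with its SE from a limma fit to the values plus 1. It therefore understates the change of genes with low levels. Rises and falls are genes that met both an adjusted p below 0.05 and a change of 1.5-fold or more on that scale. The labels give triplicates without saying that they were separate cultures, and p-values then refer to the spread among these libraries. Reads recovered from the values were between 18.43 and 26.72 M in the Ad-TEADi libraries at 24 h and between 15.77 and 17.91 M in the Ad-GFP libraries. The cells carried the markers of their label. The summed level of 10 keratinocyte markers (such as KRT5, KRT14 and TP63) was between 32400 and 33700 CPM with Ad-TEADi and between 27700 and 28500 CPM with Ad-GFP, and 9 of the 10 passed the adjusted p upward without reaching 1.5-fold. The 7 fibroblast markers with deposited values, of 10 written, summed to between 55.4 and 57.4 CPM with Ad-TEADi and between 52.1 and 56.8 CPM with Ad-GFP, and 5 of them were tested. MITF was the 1 tested melanocyte marker of 7 written, at about 2 CPM in both groups. The 5 immune and endothelial markers with deposited values, of 10 written, summed to between 27.1 and 31 CPM with Ad-TEADi and between 17.9 and 24.5 CPM with Ad-GFP. The 3 tested were CD68, CD14 and CD74, and most of the sum was CD68, a lysosomal gene that epithelial cells also express. The part of these markers in the results was not tested. In bulk RNA, fewer cells of a kind and less RNA per cell cannot be told apart.

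At 24 h, 233 of 13050 genes tested were called, which is 1.79%, with 154 higher (1.18%) and 79 lower (0.605%) in Ad-TEADi. At any fold, 1314 genes passed the adjusted p upward (10.1%) and 1079 downward (8.27%). Counts within the lists below are to be read against these shares. The changes were moderate in size. The median log2 change was 0.72 among the 154 genes that rose and -0.70 among the 79 that fell, and 23 rises and 12 falls reached 2-fold. Of the called genes, 45 rises and 15 falls were below 5 CPM in both groups. The 24 h groups did not overlap for 153 of the 154 rises and for 78 of the 79 falls (PQBP1, the other fall, was at 0 recovered reads in libraries of both groups), against 34.2% of all genes tested (17.8% with Ad-TEADi higher and 16.5% with it lower), and this separation follows in part from the call itself. The 15 largest rises and falls named below were drawn from genes with separate groups, so their separation follows from that choice. The count of falls moved to 120 when Ad-TEADi replicate 1 was left out, and no other single library moved a count of calls by over 1.5 times. The median change over all genes was 0 (log2), and the 12 housekeeping genes had a median of -0.03 with none called.

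The best known targets of YAP1, TAZ and TEAD were led by the CCN genes, which code for secreted matricellular proteins. CTGF stood at 23.9, 14.3 and 13.6 CPM in Ad-TEADi and at 67.0, 58.5 and 59.0 CPM in Ad-GFP, a log2 change of -1.81 ± 0.15 (adjusted p = 2.1e-06). CYR61 stood at 229, 170 and 180 CPM in Ad-TEADi and at 407, 369 and 377 CPM in Ad-GFP (log2 change -1.0 ± 0.08, adjusted p = 5.3e-07). In both genes every Ad-TEADi library was below every Ad-GFP library, and Ad-TEADi replicate 1 was the least reduced. These were the 2 falls among 24 tested targets of 27 written, against 0.605% of all genes, and none of the 24 rose. At any fold, 11 of the 24 passed the adjusted p downward and 1 upward, against 8.27% and 10.1% of all genes, and the list median was -0.18. AXL, a receptor tyrosine kinase, was at 211, 174 and 174 CPM in Ad-TEADi and at 268, 258 and 268 CPM in Ad-GFP, a log2 change of -0.51 ± 0.05 that missed the fold limit. AMOTL2, an angiomotin that binds YAP1, had a change of -0.52 ± 0.06 and missed it as well. Both would have been called without Ad-TEADi replicate 1, with log2 changes of -0.60 and -0.61. Smaller changes that passed the adjusted p were seen for FSTL1 (-0.32 ± 0.04) and FST (-0.26 ± 0.04), the secreted follistatin family members.

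The promoter of CTGF is shown because its fall was the lowest among called genes apart from PQBP1, whose reads are uncertain, and that of TNFSF15 because it holds the TEAD motif in a gene that also fell by over 2-fold. The pair is not typical of the large falls, since the windows of GJA5, TMEM200A, NLRP3, S1PR1, APLN and EDN1 held no match. The window of PDE1C, which also fell by over 2-fold, held 1 match. Sequences are RefSeq promoter windows of 300 bases on GRCh38.p14, from 250 bases before to 50 after the annotated start of the gene, written 5′ to 3′ on the strand of the gene. The last 50 bases lie inside the transcript. Capitals mark the TEAD motif, GGAATG on either strand. The CTGF window, chr6:131951323-131951622 on the minus strand, had 3 matches, whose first bases lie at -169, -104 and -95 from the start base. The TNFSF15 window, chr9:114792481-114792780 on the minus strand, had 1 match on the opposite strand, at -80, so its letters read CATTCC.
CTGF: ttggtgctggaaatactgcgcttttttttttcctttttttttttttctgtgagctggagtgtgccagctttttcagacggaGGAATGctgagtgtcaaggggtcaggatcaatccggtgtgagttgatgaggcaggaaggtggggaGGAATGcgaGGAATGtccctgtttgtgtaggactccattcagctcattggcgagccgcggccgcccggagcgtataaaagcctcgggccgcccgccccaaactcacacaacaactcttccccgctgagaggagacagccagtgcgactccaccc
TNFSF15: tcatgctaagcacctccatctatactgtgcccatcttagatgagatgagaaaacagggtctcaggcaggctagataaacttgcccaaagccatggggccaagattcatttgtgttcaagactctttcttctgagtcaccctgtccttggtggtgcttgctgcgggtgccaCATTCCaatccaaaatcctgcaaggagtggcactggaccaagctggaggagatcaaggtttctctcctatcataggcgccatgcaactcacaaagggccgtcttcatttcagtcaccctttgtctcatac

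A promoter window could be matched for 114 of the 154 genes that rose, for 57 of the 79 that fell and for 9913 of the 13050 tested. The letters GGAATG were present on either strand in 21.1% of the windows of genes that fell, in 9.6% of those of genes that rose and in 10.8% of all windows. The AP-1 motif TGANTCA, the site type of FOS and JUN proteins, was present in 14% of the windows of genes that rose and in 10.5% of those that fell, against 4.7% of all windows. The E2F motif TTNGCGC was present in 7.9% of windows for rises, 7.0% for falls and 12.9% of all. The KLF motif GGGTGTG was present in 7.9%, 7.0% and 7.1% of windows in the same order. All were searched on both strands. TGANTCA reads the same on both, the closing bases of GGAATG and GGGTGTG can also open TGANTCA, and each motif was counted on its own. A match describes the letters in the window, not binding. These shares rest on small counts, 12 of 57 windows for GGAATG in genes that fell and 16 of 114 for TGANTCA in genes that rose, and no test was run on them.

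The Hippo pathway itself moved little. Of 21 tested components and cofactors of 23 written, 1 fell and none rose, against 0.605% and 1.18% of all genes. The list median was 0. The fall was VGLL1, a vestigial-like cofactor that competes for TEAD, at 2.55, 1.86 and 1.39 CPM in Ad-TEADi and 4.51, 4.84 and 3.94 CPM in Ad-GFP (log2 change -0.90 ± 0.14, adjusted p = 1.0e-05). Its groups did not overlap, but with a pseudocount of 5 its change was -0.45 and it was not called. The genes whose TEAD-binding stretches are part of the TEADi construct were slightly higher. VGLL4 was at 44.5, 45.6 and 47.6 CPM in Ad-TEADi and 38.8, 37.5 and 37.0 CPM in Ad-GFP (0.27 ± 0.06), YAP1 differed by 0.14 ± 0.05, and WWTR1, the gene of TAZ, by 0.18 with an adjusted p of 0.0454. Whether reads of the construct add to these values was not tested. TEAD3 differed by 0.22 ± 0.06, and NF2, an upstream Hippo activator, by -0.25 ± 0.06, all short of the fold limit.

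**Figure D1:**
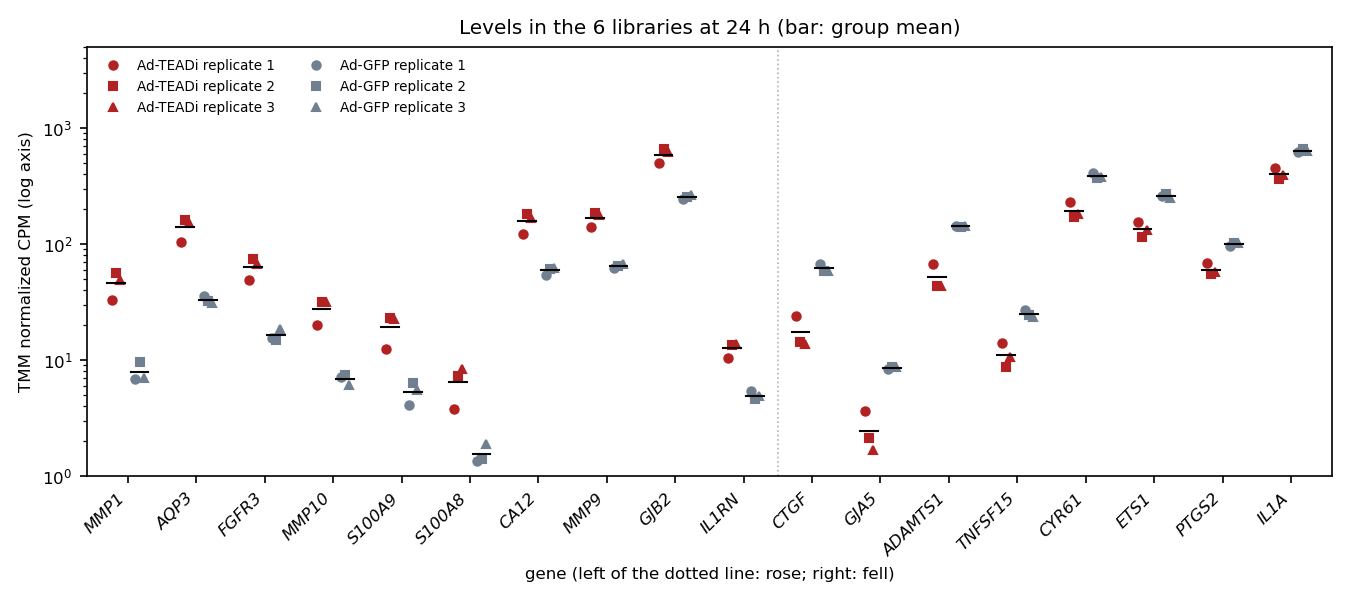
Levels of 18 named genes in the 6 libraries at 24 h in TMM normalized CPM on a log axis, with Ad-TEADi (red) left of Ad-GFP (grey) for each gene, a marker shape per replicate and a bar at the group mean. For each gene the groups do not overlap, as for MMP1 (32.6 to 55.9 CPM in Ad-TEADi and 6.87 to 9.53 CPM in Ad-GFP) and CTGF (13.6 to 23.9 CPM in Ad-TEADi and 58.5 to 67.0 CPM in Ad-GFP).

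The largest rise was that of MMP1, an interstitial collagenase, at 32.6, 55.9 and 48.8 CPM in Ad-TEADi and 6.87, 9.53 and 7.02 CPM in Ad-GFP (log2 change 2.39 ± 0.17, adjusted p = 1.9e-07). MMP10, a stromelysin that lies beside it on chromosome 11, was at 20.2, 31.4 and 31.4 CPM in Ad-TEADi and 7.12, 7.47 and 6.10 CPM in Ad-GFP (1.84 ± 0.14, adjusted p = 2.3e-08). MMP9, a gelatinase, was the most abundant of the 3, at 140, 185 and 177 CPM in Ad-TEADi and 62.6, 64.3 and 66.8 CPM in Ad-GFP (1.35 ± 0.11, adjusted p = 9.2e-07). Ad-TEADi replicate 1 was the lowest of its group for all 3 genes and still above each Ad-GFP library. Among 17 tested proteases and inhibitors of 22 written these were the 3 that rose, against 1.18% of all genes, and the list median was 0.10. The 1 fall was ADAMTS1, a secreted protease that cleaves matrix proteoglycans, at 67.7, 43.2 and 43.8 CPM in Ad-TEADi and 143, 139 and 143 CPM in Ad-GFP (-1.47 ± 0.13, adjusted p = 3.4e-06). ADAMTS6 lay just short of the fold limit at -0.58 ± 0.08 and was called in 4 of the 6 fits that leave out 1 library, those without replicate 1 or 3 of either virus (log2 changes between -0.59 and -0.68). ADAM19, a membrane protease, differed by 0.50 ± 0.06.

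The plasminogen system is another set of secreted proteases and their inhibitors. PLAT, the tissue plasminogen activator, was at 107, 84.9 and 92.5 CPM in Ad-TEADi and 162, 149 and 157 CPM in Ad-GFP (log2 change -0.72 ± 0.06, adjusted p = 7.8e-10). SERPINB2, an inhibitor of plasminogen activators, was at 279, 242 and 251 CPM in Ad-TEADi and 419, 447 and 433 CPM in Ad-GFP (-0.75 ± 0.06). These were the 2 falls among 7 tested members of 8 written, against 0.605% of all genes. PLAU, the urokinase gene, differed by 0.34 ± 0.04.

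Inflammatory mediators were called in both directions, with 5 rises and 7 falls among 28 tested genes of 31 written, against 1.18% and 0.605% of all genes, and a median of -0.15. The falls included the agonists of the interleukin-1 receptor. IL1A was at 449, 366 and 396 CPM in Ad-TEADi and 619, 661 and 639 CPM in Ad-GFP (log2 change -0.67 ± 0.05, adjusted p = 4.6e-11). IL1B was at 110, 85.1 and 89.3 CPM in Ad-TEADi and 141, 144 and 144 CPM in Ad-GFP (-0.60 ± 0.08), a call that was lost without Ad-TEADi replicate 2 (-0.53) or 3 (-0.56). The antagonist of the same receptor went the other way. IL1RN was at 10.5, 13.4 and 13.8 CPM in Ad-TEADi and 5.36, 4.58 and 4.85 CPM in Ad-GFP (1.18 ± 0.11, adjusted p = 7.8e-10), and neither IL1RN nor IL1A lost its call under any alternative fit that tested it at the 1.5-fold limit. PTGS2, the inducible cyclooxygenase that starts prostaglandin synthesis, was at 68.9, 54.6 and 56.9 CPM in Ad-TEADi and 96.6, 102 and 102 CPM in Ad-GFP (-0.73 ± 0.06). TNFSF15, a TNF family cytokine, was at 14, 8.78 and 10.6 CPM in Ad-TEADi and 27.0, 24.6 and 23.4 CPM in Ad-GFP (-1.12 ± 0.11). NLRP3, the sensor of an inflammasome that processes interleukin-1 beta, was at 4.67, 2.16 and 2.13 CPM in Ad-TEADi and 8.07, 6.80 and 6.79 CPM in Ad-GFP (-1.10 ± 0.17). In each of these genes the groups did not overlap, which for IL1RN, TNFSF15 and NLRP3 was a condition of their choice. The other falls, named after their values were seen along with IL1B, were the neutrophil chemokine CXCL1 (-0.78 ± 0.09) and ALOX5AP, a helper of leukotriene synthesis (-0.66 ± 0.14). Among the rises, IL33, a nuclear alarmin, was at 4.82, 7.65 and 9.21 CPM in Ad-TEADi and 2.91, 2.47 and 3.19 CPM in Ad-GFP (1.06 ± 0.15). IL11, IL36G and the prostaglandin synthase PTGES, also named after their values were seen, rose by 0.80, 0.80 and 0.59 on the log2 scale, and PTGES lost its call in 4 of the 6 fits that leave out 1 library (values between 0.46 and 0.57, those without replicate 2 or 3 of either virus).

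The promoters of genes that moved in opposite directions are shown for MMP10, IL1RN and IL1A, all with the AP-1 motif TGANTCA in capitals. They were chosen from windows that hold the motif and are not typical, since only 16 of 114 windows for rises and 6 of 57 for falls held it. The windows of S100A8, S100A9, AQP3, FGFR3, IL33, IL1B and PTGS2 held no match. The windows are chr11:102780579-102780878 on the minus strand with a match at -67, chr2:113117721-113118020 on the plus strand with a match at -223, and chr2:112784444-112784743 on the minus strand with matches at -12 and 38.
MMP10: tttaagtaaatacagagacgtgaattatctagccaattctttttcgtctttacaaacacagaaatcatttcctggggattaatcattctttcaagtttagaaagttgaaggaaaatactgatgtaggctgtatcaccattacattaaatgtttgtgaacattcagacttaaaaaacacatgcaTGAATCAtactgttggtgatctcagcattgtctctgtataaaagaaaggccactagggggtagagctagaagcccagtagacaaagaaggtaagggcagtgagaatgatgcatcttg
IL1RN: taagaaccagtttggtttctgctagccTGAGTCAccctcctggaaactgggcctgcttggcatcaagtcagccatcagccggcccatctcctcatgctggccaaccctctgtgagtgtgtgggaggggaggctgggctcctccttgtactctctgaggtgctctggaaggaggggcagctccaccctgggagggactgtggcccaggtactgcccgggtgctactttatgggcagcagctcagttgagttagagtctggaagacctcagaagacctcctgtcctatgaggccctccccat
IL1A: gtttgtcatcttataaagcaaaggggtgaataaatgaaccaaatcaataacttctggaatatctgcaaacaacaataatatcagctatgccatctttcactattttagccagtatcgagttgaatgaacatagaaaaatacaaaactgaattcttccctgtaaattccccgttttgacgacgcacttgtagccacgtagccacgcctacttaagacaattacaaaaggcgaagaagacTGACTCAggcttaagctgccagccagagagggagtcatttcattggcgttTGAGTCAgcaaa
Among the transcripts of AP-1 subunits, FOS was at 10.8, 14.7 and 13.8 CPM in Ad-TEADi and 6.17, 5.30 and 7.65 CPM in Ad-GFP (log2 change 0.94 ± 0.12, adjusted p = 2.2e-07), while JUNB differed by 0.32 ± 0.06 and FOSL2 by 0.22 ± 0.04. FOS was the 1 call among 25 tested EGFR ligand and ERK feedback genes of 27 written, against 1.79% of all genes. The median of that list was 0.01. AREG, the most abundant EGFR ligand named, was at 921, 903 and 913 CPM in Ad-TEADi and 1200, 1230 and 1190 CPM in Ad-GFP (-0.40 ± 0.04), and DUSP5, a phosphatase that acts on ERK, differed by -0.26 ± 0.05.

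The 15 largest falls also held genes of other roles. EDN1, the endothelin peptide, was at 8.53, 8.34 and 7.08 CPM in Ad-TEADi and 17.6, 18.1 and 16.8 CPM in Ad-GFP (log2 change -1.05 ± 0.10). APLN, the apelin peptide, was at 3.28, 1.82 and 2.03 CPM in Ad-TEADi and 6.97, 6.08 and 5.19 CPM in Ad-GFP (-1.09 ± 0.15). S1PR1, a sphingosine phosphate receptor, was at 6.94, 4.81 and 6.40 CPM in Ad-TEADi and 14.4, 13.4 and 14.1 CPM in Ad-GFP (-1.10 ± 0.11). None of these groups overlapped, which was a condition for the 15 largest falls. ETS1, a transcription factor, was far more abundant, at 156, 115 and 131 CPM in Ad-TEADi and 258, 269 and 248 CPM in Ad-GFP (-0.95 ± 0.08, adjusted p = 1.3e-07). PDE1C, a calmodulin-dependent phosphodiesterase, TMEM200A, the kinase scaffold AKAP12 and DLC1, a GTPase-activating protein, fell by 1.06, 1.25, 0.94 and 0.89 on the log2 scale. With TPM values the changes of PDE1C (-0.17), AKAP12 (-0.46) and DLC1 (-0.26) were below the fold limit. EDN1 and AKAP12 were the 2 falls among 23 tested actin and SRF genes of 26 written, against 0.605% of all genes. The median of that list was -0.03, and TPM1, a tropomyosin, differed by -0.42 ± 0.04 short of the limit. PQBP1 had the lowest fitted change, and no fold is given for it. It stood at 0 recovered reads in all 3 Ad-TEADi libraries and in Ad-GFP replicate 2, and at 42.7 and 45.5 CPM in Ad-GFP replicates 1 and 3, and it is one of 69 tested genes whose reads may be split between copies. Its call held in 1 of the 6 fits that leave out a library, the one without Ad-GFP replicate 2.

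S100 genes code for small calcium-binding proteins, and the pair S100A8 and S100A9 forms calprotectin, an alarm protein of stressed epidermis. S100A9 was at 12.5, 23.1 and 22.7 CPM in Ad-TEADi and 4.06, 6.38 and 5.53 CPM in Ad-GFP (log2 change 1.66 ± 0.19, adjusted p = 2.8e-05). S100A8 was at 3.76, 7.31 and 8.33 CPM in Ad-TEADi and 1.35, 1.39 and 1.88 CPM in Ad-GFP (1.5 ± 0.17, adjusted p = 7.5e-07). For both genes the groups did not overlap, and Ad-TEADi replicate 1 lay nearest to Ad-GFP. They were the 2 calls among 12 tested members of 16 written, against 1.18% of all genes called higher. At any fold, 5 of the 12 passed the adjusted p upward and none downward, against 10.1% and 8.27% of all genes. The median was 0.16. S100A6, of far higher level, was at 494, 560 and 569 CPM in Ad-TEADi and 434, 414 and 429 CPM in Ad-GFP, a change of 0.34 ± 0.06.

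Rises were also called among membrane channels and receptors. AQP3, the water and glycerol channel of the epidermis, was at 105, 160 and 153 CPM in Ad-TEADi and 35.4, 32.0 and 31.0 CPM in Ad-GFP (log2 change 2.03 ± 0.14, adjusted p = 4.3e-07). CA12, a carbonic anhydrase of the cell surface, was at 122, 181 and 169 CPM in Ad-TEADi and 54.2, 61.4 and 61.8 CPM in Ad-GFP (1.38 ± 0.11). TRPV3, a heat-sensitive calcium channel of keratinocytes, rose by 0.76 ± 0.13, and its change on TPM values was 0.50. These were the 3 rises among 18 tested channels and transporters of 21 written, against 1.18% of all genes, with a median of 0.06. FGFR3, a receptor for fibroblast growth factors found in the suprabasal epidermis, was at 48.6, 75.0 and 66.7 CPM in Ad-TEADi and 15.5, 15 and 18.4 CPM in Ad-GFP (1.88 ± 0.13, adjusted p = 8.2e-08). It was the 1 call among 8 tested FGF receptors and ligands, against 1.79% of all genes. The ligands FGF2 and FGF5 differed by -0.49 ± 0.12 and -0.49 ± 0.11, and FGFBP1, which frees FGF from the matrix, by 0.38 ± 0.04, all short of the fold limit. SLITRK6, a transmembrane protein with leucine-rich repeats, was at 48.7, 58.9 and 55.6 CPM in Ad-TEADi and 21.9, 23.8 and 25.0 CPM in Ad-GFP (1.17 ± 0.07).

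Some members of a list of spinous and granular differentiation genes rose at 24 h, while KRT10, TGM1 and others did not. Of 27 tested members of 37 written, 6 rose and none fell, against 1.18% and 0.605% of all genes. The 6 include KRT15, a basal keratin, and KRT16, a wound keratin. At any fold, 11 passed the adjusted p upward and 1 downward, against 10.1% and 8.27% of all genes, and the median was 0.22. KRT15, a keratin of basal and stem cells placed in this list of epidermal keratins, was at 55.9, 80.3 and 77.3 CPM in Ad-TEADi and 31.2, 34.3 and 30.1 CPM in Ad-GFP (log2 change 1.12 ± 0.12, adjusted p = 9.9e-06). CALML3, a calmodulin-like protein of epithelia, was at 4.58, 5.50 and 5.83 CPM in Ad-TEADi and 1.91, 2.37 and 2.57 CPM in Ad-GFP (0.94 ± 0.16). IVL, the envelope precursor involucrin, was at 3.95, 5.50 and 6.77 CPM in Ad-TEADi and 2.81, 2.68 and 3.37 CPM in Ad-GFP (0.68 ± 0.13), a call that was lost without Ad-TEADi replicate 3 (0.53). The other 3 rises, named after their values were seen, were KRT16, a keratin of wounded and hyperproliferative epidermis (0.80), and the envelope precursors SPRR1B (0.80) and SPRR1A (0.65). SPRR1A was the 1 rise of the 154 whose groups overlapped, at 1.06, 2.01 and 2.48 CPM in Ad-TEADi and 1.20, 0.412 and 0.799 CPM in Ad-GFP, and it lost its call without Ad-GFP replicate 2 (0.48) or Ad-TEADi replicate 3 (0.49). KRT6B was at 394, 398 and 400 CPM in Ad-TEADi and 271, 260 and 273 CPM in Ad-GFP, a change of 0.57 ± 0.04 just short of the limit. Members that did not pass the adjusted p included the early keratin KRT10 (0.05), the cross-linking enzyme TGM1 (-0.27), SBSN, a secreted protein of the upper epidermis (0.30), and CNFN, a cornified envelope protein, at 0.38 ± 0.15. CNFN was at 0.675, 0.736 and 0.779 CPM in Ad-TEADi and 0.401, 0.206 and 0.399 CPM in Ad-GFP, so its groups did not overlap, and at such levels the 1 added to each value keeps the log2 change small.

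Transcription factors that drive differentiation gave 4 rises and no fall among 25 tested of 29 written, against 1.18% and 0.605% of all genes. Their median was 0.19, and 12 of the 25 passed the adjusted p upward, against 10.1% of all genes. GRHL3, a grainyhead factor of the barrier, was at 7.76, 12.3 and 10.2 CPM in Ad-TEADi and 5.62, 4.79 and 4.62 CPM in Ad-GFP (log2 change 0.87 ± 0.12). MAF, which acts in late epidermal differentiation, was at 4.82, 7.07 and 4.81 CPM in Ad-TEADi and 1.91, 2.47 and 2.23 CPM in Ad-GFP (1.02 ± 0.15). ZNF750, a zinc finger factor of terminal differentiation, stood below 1 CPM, at 0.675, 0.834 and 0.745 CPM in Ad-TEADi and 0.10, 0.257 and 0.114 CPM in Ad-GFP (0.60 ± 0.16, adjusted p = 0.00546). It passed the level filter only through the Ad-TEADi libraries at 48 h (mean 3.5 CPM). The groups did not overlap in these 3 genes, and the call of ZNF750 did not hold without replicate 1 (0.56) or 3 (0.57) of Ad-GFP or replicate 2 (0.57) of Ad-TEADi. The remaining rise, named after its value was seen, was OVOL1 (0.74 ± 0.16). TP63, the master factor of basal keratinocytes, was not lower, at 265, 296 and 273 CPM in Ad-TEADi and 208, 212 and 211 CPM in Ad-GFP (0.40 ± 0.04). KLF4 differed by 0.19 ± 0.06 and PRDM1 by 0.49 ± 0.07. In the Notch pathway, which promotes spinous fate, NOTCH3 was the 1 call among 13 tested genes of 18 written, against 1.79% of all genes. It stood at 0.626, 1.67 and 1.66 CPM in Ad-TEADi and 0.201, 0.206 and 0.114 CPM in Ad-GFP (0.95 ± 0.16, adjusted p = 4.0e-05), with a change of 0.28 when the pseudocount was 5. Its Ad-GFP means were below 1 CPM at each time, so only Ad-TEADi libraries brought it past the level filter. NOTCH1, of far higher level, was at 241, 249 and 254 CPM in Ad-TEADi and 183, 177 and 184 CPM in Ad-GFP (0.45 ± 0.05), and the Notch target HES1 differed by 0.41 ± 0.10.

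**Figure D2:**
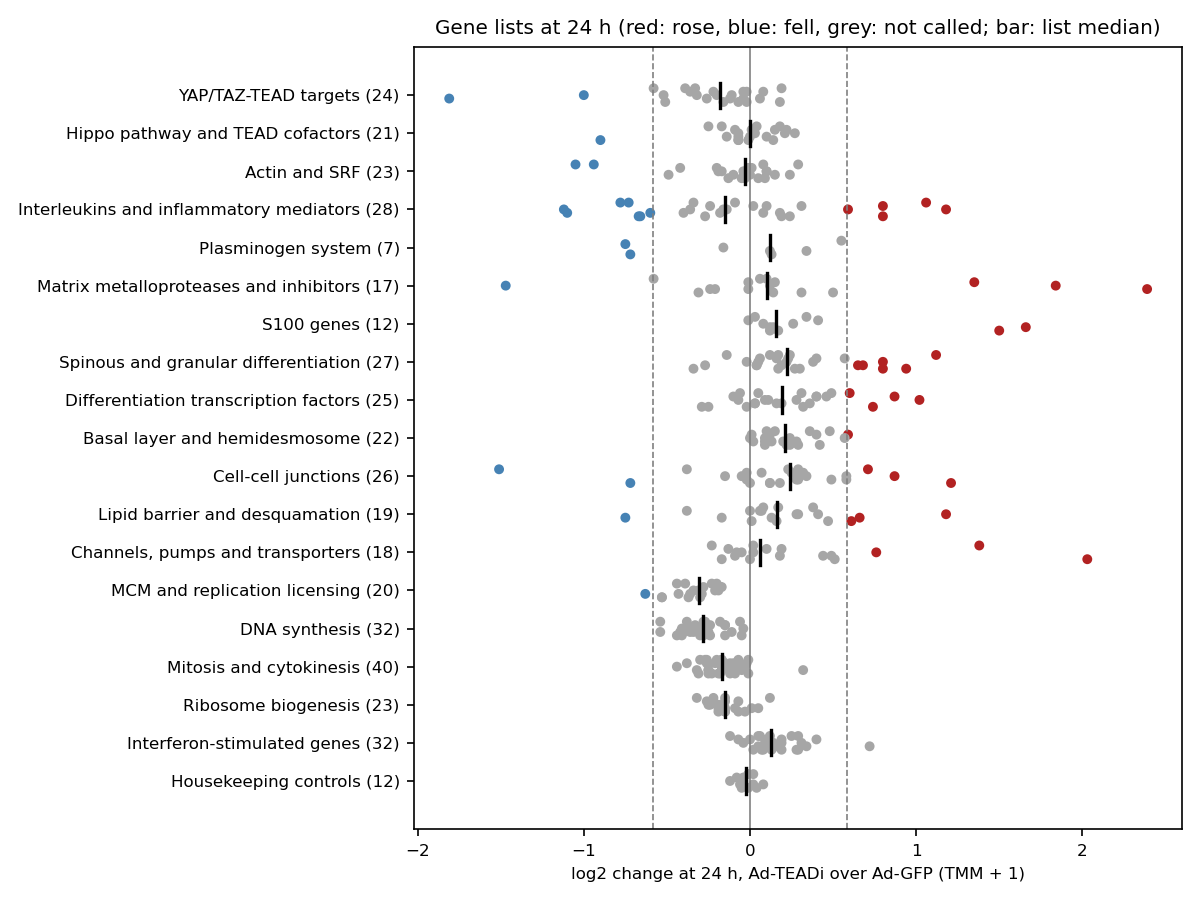
Log2 change at 24 h (Ad-TEADi over Ad-GFP, TMM + 1) of each tested member of 19 gene lists, with the number of members in parentheses, red for rises, blue for falls, a black bar at the list median and dashed lines at 1.5-fold. The medians reach from -0.31 for replication licensing genes to 0.24 for cell-cell junctions, and most members lie between the dashed lines.

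Genes of the basal layer and of junctions were mostly below the fold limit. All 22 tested basal layer and hemidesmosome genes of 23 written had changes above 0, 13 passed the adjusted p upward and none downward, and the median was 0.21, yet only 1 was called. That gene was ITGB6, an epithelial integrin subunit, at 260, 308 and 283 CPM in Ad-TEADi and 183, 191 and 191 CPM in Ad-GFP (log2 change 0.59 ± 0.05), and its call was lost without Ad-GFP replicate 1 (0.56) or Ad-TEADi replicate 2 (0.52). KRT14, the basal keratin, was at 4970, 5430 and 5350 CPM in Ad-TEADi and 4150, 3930 and 4150 CPM in Ad-GFP (0.36 ± 0.04), and LAMA5, a laminin chain, differed by 0.57 ± 0.05 and was called without replicate 3 (0.60) of Ad-GFP or replicate 1 or 2 (0.59 each) of Ad-TEADi. Among 26 tested junction genes of 31 written, 3 rose and 2 fell, against 1.18% and 0.605% of all genes. At any fold, 14 passed the adjusted p upward and 3 downward, against 10.1% and 8.27% of all genes, and the median was 0.24. Connexins, which form gap junctions, were called in both directions. GJB2 was at 504, 654 and 616 CPM in Ad-TEADi and 246, 253 and 263 CPM in Ad-GFP (1.21 ± 0.06, adjusted p = 2.9e-11). GJB6 was at 20.9, 22.2 and 23.5 CPM in Ad-TEADi and 15.3, 13 and 11.5 CPM in Ad-GFP (0.71 ± 0.08). GJA5, a connexin of heart and vessel, was at 3.61, 2.11 and 1.66 CPM in Ad-TEADi and 8.32, 8.70 and 8.67 CPM in Ad-GFP (-1.51 ± 0.15, adjusted p = 7.5e-09). None of these 3 overlapped between the groups, which for GJB2 and GJA5 was a condition of their choice. FAT2, an epithelial protocadherin, rose by 0.87 ± 0.10 and OCLN, a tight junction protein, fell by 0.72 on the log2 scale, both named after their values were seen. The desmosomal cadherin DSC2 lay just short of the limit at 0.58 ± 0.06 and was called without replicate 1 or 2 of Ad-GFP or replicate 1 or 3 of Ad-TEADi (values between 0.59 and 0.62). DSG3 differed by 0.48 ± 0.05 and the desmosomal plaque protein PKP1 by 0.49 ± 0.05.

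Lipid barrier and desquamation genes gave 3 rises and 1 fall among 19 tested of 31 written, against 1.18% and 0.605% of all genes, with a median of 0.16. ALOX15B, a lipoxygenase, was at 17.3, 24.1 and 22.7 CPM in Ad-TEADi and 7.47, 8.70 and 10.4 CPM in Ad-GFP (log2 change 1.18 ± 0.10, adjusted p = 1.4e-09). ABCA12, the lipid transporter of lamellar granules, was at 19.4, 27.7 and 22.4 CPM in Ad-TEADi and 14.4, 15.8 and 13.9 CPM in Ad-GFP (0.61 ± 0.11), a call that was lost without Ad-TEADi replicate 2 (0.48) or Ad-GFP replicate 3 (0.57). The remaining rise, named after its value was seen, was SPINK5, an inhibitor of skin kallikreins (0.66 ± 0.16), which lost its call without replicate 1 (0.57) or 2 (0.56) of Ad-GFP or replicate 2 (0.58) of Ad-TEADi. Oxidative defence genes gave 3 rises and 1 fall among 19 tested of 22 written, against the same shares of all genes, with a median of 0.13. AKR1C2, an aldo-keto reductase with near-identical relatives, was at 9.14, 16.6 and 15.8 CPM in Ad-TEADi and 3.93, 5.14 and 3.97 CPM in Ad-GFP (1.44 ± 0.15), so its reads may be shared with those relatives. FAM213A, a peroxiredoxin-like protein, and GPX2, a glutathione peroxidase, rose by 1.37 ± 0.14 and 0.75 ± 0.12. TXNRD1, a thioredoxin reductase and common NRF2 target, was at 296, 251 and 255 CPM in Ad-TEADi and 413, 412 and 397 CPM in Ad-GFP (-0.61 ± 0.05), and its call was lost without Ad-TEADi replicate 2 (-0.57) or 3 (-0.58). C10orf10, a target of FOXO factors in no list, rose by 1.28 ± 0.10.

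Replication genes were lower as a whole by less than the fold limit. All 20 replication licensing genes had changes below 0, with a median of -0.31, and 16 of them passed the adjusted p, but 1 was called. Of all genes, 8.27% passed the adjusted p downward and 0.605% were called lower. CDC6, which loads the MCM helicase, was at 77.6, 65.4 and 64.5 CPM in Ad-TEADi and 109, 108 and 106 CPM in Ad-GFP (log2 change -0.63 ± 0.06, adjusted p = 1.2e-09). MCM5, a helicase subunit, was at 84.5, 76.6 and 74.5 CPM in Ad-TEADi and 103, 100 and 105 CPM in Ad-GFP (-0.39 ± 0.06), and MCM7 and MCM3 differed by -0.36 ± 0.06 and -0.31 ± 0.06. The 32 tested DNA synthesis genes of 33 written were likewise all below 0, with 22 past the adjusted p, none called and a median of -0.28. RRM2, a subunit of ribonucleotide reductase, was at 131, 117 and 112 CPM in Ad-TEADi and 158, 161 and 150 CPM in Ad-GFP (-0.38 ± 0.06). The groups did not overlap for CDC6, MCM5 or RRM2, and Ad-TEADi replicate 1 was the nearest to Ad-GFP in each. MCM10, CHAF1B and DNMT1 lay between -0.53 and -0.54 and would each have been called without Ad-TEADi replicate 1 (values of -0.62, -0.61 and -0.67), and CHAF1B also without Ad-GFP replicate 3 (-0.59). Mitosis genes had a median of -0.17 over 40 members, with 18 past the adjusted p downward, 1 upward and none called. MAD2L1, of the spindle checkpoint, differed by -0.38 ± 0.07, and CDC25B, a phosphatase that starts mitosis, by 0.32 ± 0.05. Among 28 tested E2F, cyclin and CDK genes of 29 written there was 1 call, against 1.79% of all genes. It was E2F1, a driver of S phase genes, at 14.5, 8.83 and 10.4 CPM in Ad-TEADi and 17.8, 17.1 and 17.5 CPM in Ad-GFP (-0.62 ± 0.12, adjusted p = 0.00032). The call was lost without Ad-TEADi replicate 2 (-0.48) or 3 (-0.58). CDKN2B, an inhibitor of the G1 kinases, was at 14.4, 13.3 and 14.9 CPM in Ad-TEADi and 8.67, 8.70 and 10 CPM in Ad-GFP, a change of 0.58 ± 0.09 that reached the limit without Ad-GFP replicate 3 (0.65) or Ad-TEADi replicate 2 (0.63). CCND1 and CCND2, the D cyclins, differed by -0.32 ± 0.05 and -0.43 ± 0.05.

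MYC, a growth regulator, was at 224, 220 and 200 CPM in Ad-TEADi and 236, 233 and 239 CPM in Ad-GFP, a log2 change of -0.14 ± 0.05. In its network of 10 tested genes of 11 written, MXD4, a repressor that competes with MYC for MAX, was the 1 call. Of all genes, 1.79% were called. MXD4 was at 50, 58.2 and 58.6 CPM in Ad-TEADi and 33.8, 33.4 and 36.1 CPM in Ad-GFP (0.67 ± 0.07). Among 18 tested p53 targets 2 rose, the antiproliferative gene BTG2 (0.59 ± 0.06) and TP53INP1 (0.64 ± 0.08), against 1.18% of all genes and with a list median of 0.06. Both had non-overlapping groups and both were near the limit, since BTG2 was lost without Ad-GFP replicate 2 (0.58) or Ad-TEADi replicate 2 (0.55) and TP53INP1 without Ad-TEADi replicate 3 (0.58). Ribosome biogenesis had 14 of 23 tested genes of 25 written past the adjusted p downward and none upward. Of all genes, 8.27% passed it downward and 10.1% upward. The list median was -0.15 and none was called. NCL, the nucleolar protein nucleolin, was at 1270, 1270 and 1180 CPM in Ad-TEADi and 1430, 1520 and 1380 CPM in Ad-GFP (-0.22 ± 0.04). In the unfolded protein response, 7 of 18 tested genes of 19 written passed the adjusted p downward, against 8.27% of all genes. The median was -0.12. The endoplasmic reticulum chaperone HSPA5 was at 5990, 5490 and 5380 CPM in Ad-TEADi and 7190, 7710 and 7000 CPM in Ad-GFP (-0.38 ± 0.06), and HERPUD1, which helps degrade misfolded proteins, differed by -0.55 ± 0.06 and was called without Ad-TEADi replicate 1 (-0.63). Cholesterol synthesis and glycolysis had medians of 0.09 each over 23 tested genes and no calls. In them, SLC2A1, a glucose transporter, differed by 0.49 ± 0.04 and the hexokinase HK2 by -0.53 ± 0.06, with a call for HK2 without Ad-TEADi replicate 1 (-0.62).

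TGF-beta and matrix genes had 2 falls among 22 tested of 24 written, against 0.605% of all genes. At any fold, 10 passed the adjusted p upward and 4 downward, against 10.1% and 8.27% of all genes, with a median of 0.17. The falls, named after their values were seen, were THBS1 and LOX. THBS1, a secreted matricellular protein of very high level, was at 3930, 2830 and 2840 CPM in Ad-TEADi and 5030, 4950 and 4940 CPM in Ad-GFP (log2 change -0.65 ± 0.10), and its call was lost without Ad-TEADi replicate 2 (-0.57) or 3 (-0.58) and in the fit of the 24 h libraries alone. LOX, a collagen cross-linking enzyme, fell by 0.62 on the log2 scale and was lost without Ad-GFP replicate 2 (-0.55) or Ad-TEADi replicate 2 (-0.45). TNC, the matrix protein tenascin, was at 365, 419 and 402 CPM in Ad-TEADi and 257, 276 and 271 CPM in Ad-GFP, a change of 0.56 ± 0.05 that missed the limit and passed it at 0.61 without Ad-TEADi replicate 1. COL7A1, the anchoring fibril collagen, differed by 0.47 ± 0.05 and TGFBI, a protein that TGF-beta induces, by 0.40 ± 0.04.

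Interferon-stimulated genes varied between libraries of a group. None of the 32 tested was called or passed the adjusted p at 24 h, 29 of them had changes above 0, and the median was 0.13. At 12 h all 32 were below 0, with a median of -0.34 and none called, and the 24 h response minus the 12 h response had a median of 0.48 with 2 genes past the adjusted p upward, where 5.75% of all genes passed it. OASL, an antiviral enzyme family member, shows the spread, at 9.20, 11.9 and 5.42 CPM in Ad-TEADi and 6.42, 6.33 and 5.76 CPM in Ad-GFP (log2 change 0.40 ± 0.21, adjusted p = 0.218). Its groups overlapped, and without Ad-TEADi replicate 3 it was called at 0.68. SAMD9, a restriction factor, was at 150, 141 and 101 CPM in Ad-TEADi and 98.4, 121 and 88.1 CPM in Ad-GFP, with overlapping groups as well.

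Few of the genes called at 24 h were called at 12 h, though most already had the same sign there. At 12 h 5 of the 13050 genes were called (0.0383%), 0.00766% higher and 0.0307% lower. Among the 233 genes called at 24 h, 1 rise and no fall was called at 12 h, while 7 rises and 4 falls had passed the adjusted p in the same direction, against 0.697% and 0.751% of all genes. That 1 gene was TRPV3, with a log2 change of 0.60 at 12 h. The 154 rises had a median log2 change of 0.13 at 12 h and 118 of them were above 0 there, and the 79 falls had a median of -0.15 with 72 below 0, where 50.4% of all genes were above 0. By the test of the difference itself, 194 of all genes (1.49%) had a response at 24 h unlike that at 12 h, 0.981% higher and 0.506% lower, and these included 83 of the 154 rises and 36 of the 79 falls. The comparisons at 12, 24 and 48 h share no libraries, while the tests of the differences use the same 24 h libraries that made the calls.

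At 48 h 1650 genes were called (12.6%), and most of the 24 h calls were still present. All 233 kept their sign, 145 of the 154 rises and 70 of the 79 falls were called in the same direction, against 6.31% and 6.34% of all genes, and none was called in the opposite direction. Some of them, such as ZNF750, passed the level filter only through 48 h libraries. With the filter applied to the 24 h libraries alone, 222 of the 233 calls at 24 h were kept. The median log2 change was 1.36 for the rises and -1.27 for the falls at 48 h. The 48 h response was larger by the test of the difference for 74 rises and 29 falls, where 6.11% of all genes differed, 3.01% higher and 3.1% lower. Genes separated by this measure. MMP1, MMP10 and MMP9 had log2 changes of 4.2, 3.52 and 3.52 at 48 h, and S100A8 and S100A9 had 4.62 and 4.04, each larger than at 24 h (differences between 1.68 and 3.12). NOTCH3, which passed the level filter only through Ad-TEADi libraries, had 3.91 at 48 h, a difference of 2.96. FGFR3, in contrast, was at 2.0 at 48 h, only 0.12 above its 24 h value (adjusted p = 0.713), AQP3 was at 2.43 (difference 0.40, adjusted p = 0.193), and FOS was at 1.19 (difference 0.25, adjusted p = 0.300). A p that misses the threshold does not show that the 2 responses were equal.

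Among the falls, CTGF had a log2 change of -2.97 at 48 h, ADAMTS1 -2.32, CYR61 -1.66, EDN1 -1.85, PTGS2 -1.60 and PLAT -1.67, each called larger than at 24 h. GJA5 (-2.03), TNFSF15 (-1.40), ETS1 (-1.26) and S1PR1 (-0.91) were not called different from 24 h. Spinous and granular genes were mostly a later group. Of the 27 tested, 19 rose at 48 h with a median of 1.48, and 19 had a 48 h response called higher than that at 24 h. Only 19 of the 27 reached 1 CPM in 3 or more of the 24 h libraries, and the others passed the filter with libraries of other times. Where these were Ad-TEADi libraries at 48 h, the filter itself favours a larger 48 h response. IVL had a change of 3.15 at 48 h and SPRR1A one of 4.14. In the replication licensing list 17 of 20 fell at 48 h, with a median of -1.05, and CDC6 was at -1.63. In the mitosis list, in which none was called at 24 h, 38 of 40 fell at 48 h with a median of -0.90.

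**Figure D3:**
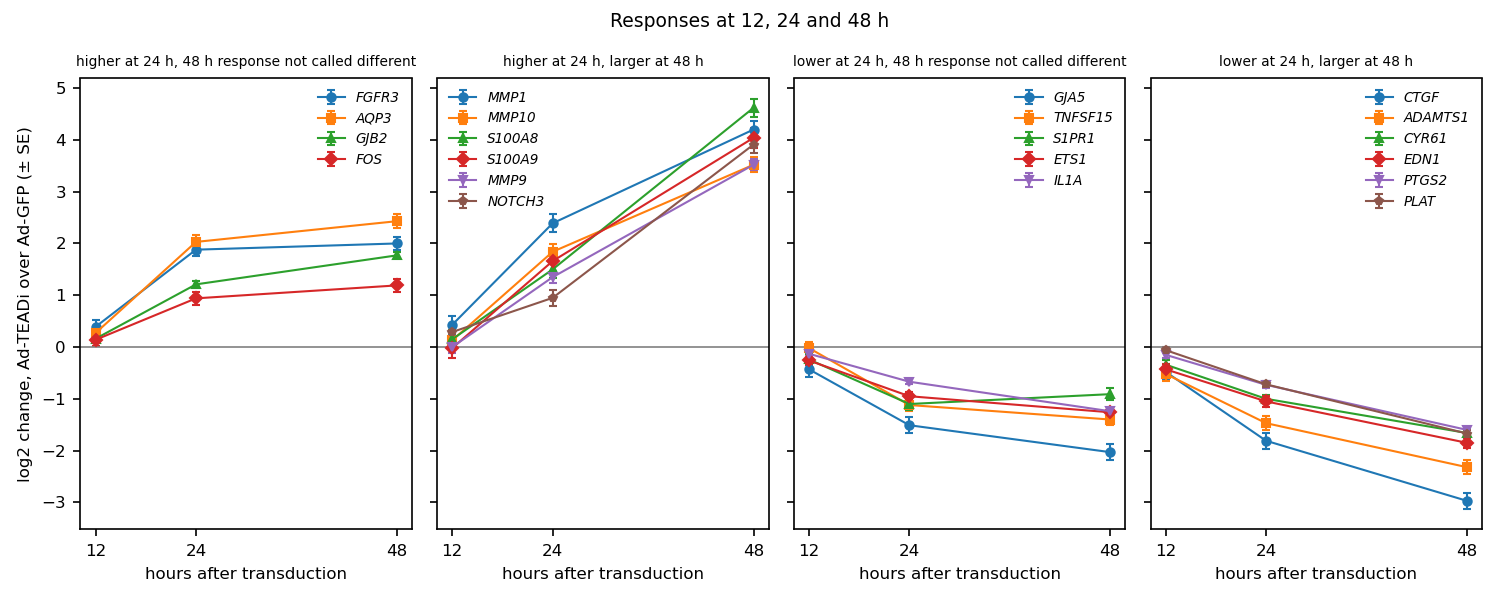
Log2 change of Ad-TEADi over Ad-GFP (± SE, 3 libraries a group) at 12, 24 and 48 h for 21 named genes, grouped by direction and by whether the 48 h response was called different from that at 24 h. FGFR3 stood at 1.88 at 24 h and 2.0 at 48 h, while S100A8 stood at 1.5 and 4.62. GJB2 and IL1A are grouped as not called different because their differences missed 1.5-fold. By the test of the difference both passed the adjusted p (GJB2 0.56, adjusted p = 8.3e-05, and IL1A -0.57, adjusted p = 3.3e-07).

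The 24 h calls without a call at 48 h were 9 rises and 9 falls. For 2 of them the test of the difference called the 48 h response smaller, and both were named after their values were seen. TGM2, a transglutaminase, was at 41.7, 27.7 and 33.9 CPM in Ad-TEADi and 65.4, 55.4 and 57.2 CPM in Ad-GFP at 24 h (log2 change -0.78 ± 0.11, adjusted p = 0.00019), and its means at 48 h were 55.4 ± 4.05 CPM in Ad-TEADi and 60.9 ± 5.22 CPM in Ad-GFP (SD, n = 3 each), a change of -0.13 ± 0.11. The difference of the responses was 0.65 ± 0.16 (adjusted p = 0.00977). GOLGA6L4, a golgin-like gene of low level from a family of near copies, had a change of 0.64 at 24 h and 0.02 at 48 h, a difference of -0.62 ± 0.21 (adjusted p = 0.0314), and its 24 h call was lost without Ad-GFP replicate 3 (0.55). The other 16, such as the integrin ITGB8 (0.61 at 24 h and 0.58 at 48 h), the cytokine brake SOCS1 (0.77 and 0.46) and the envelope-associated SCEL (-0.72 and -0.26), were not called different between the times, and they too were named after their values were seen. The 24 h call of ITGB8 was lost without Ad-GFP replicate 3 (0.55) or Ad-TEADi replicate 2 (0.56).

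Ad-TEADi replicate 1 lay nearer to Ad-GFP than the other Ad-TEADi libraries did. Over the 154 rises, the median distance from the Ad-GFP mean was 0.60, 0.80 and 0.80 on the log2 scale in Ad-TEADi replicates 1, 2 and 3, and over the 79 falls it was -0.54, -0.87 and -0.76. Replicate 1 was the Ad-TEADi library nearest to the Ad-GFP mean for 127 of the rises (82.5%) and 68 of the falls (86.1%), against 43.1% of all genes tested. Its depth, 18.77 M reads, lay between those of the others. Without it, 13 of the 180 named genes that were not called became called and 1 lost its call. Each of the 6 libraries was left out in turn, and 149 of the 233 calls were made in all 6 fits, 98 rises and 51 falls.

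**Figure D4:**
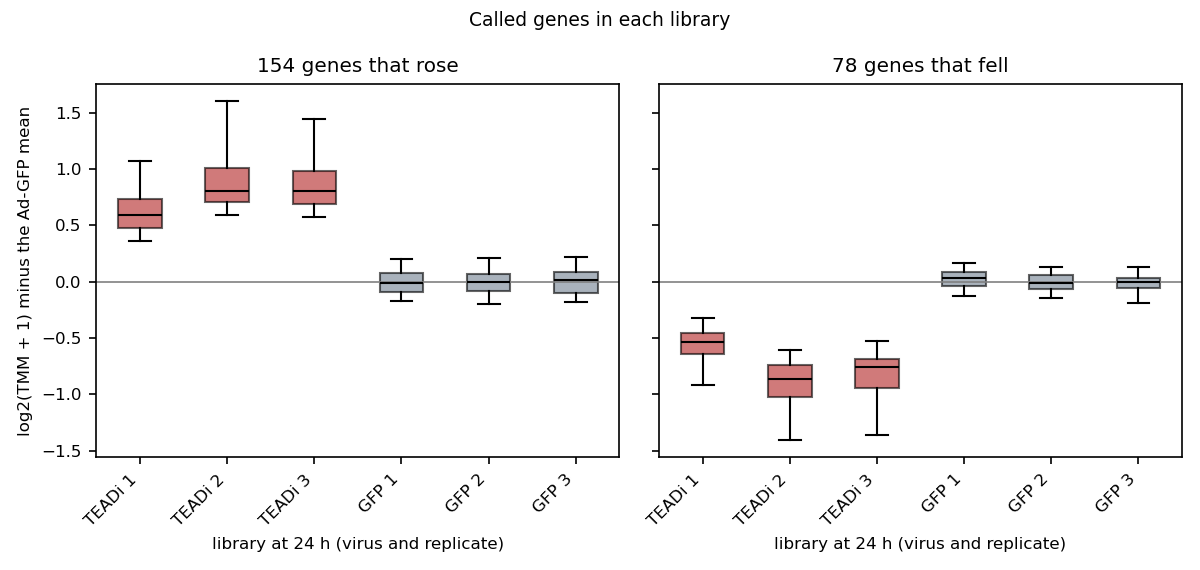
Log2(TMM + 1) minus the mean of the Ad-GFP libraries for the 154 genes that rose and for 78 that fell (PQBP1 left out), by library, with boxes from the lower to the upper quartile, a line at the median and whiskers to the 5th and 95th percentiles. Ad-TEADi replicate 1 has medians of 0.60 and -0.54, nearer to 0 than those of the other Ad-TEADi libraries, and the Ad-GFP libraries lie around 0.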

How the data were processed

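Polyadenylated RNA of N/TERT2G keratinocytes was sequenced in 18 libraries, 3 per virus and time. Sample labels gave the groups. Trimming with Trimmomatic 0.36, alignment to hg19 with STAR 2.5.1 and quantification in Partek 8.0.19.0819 are taken from the submitters' processing notes, and the methods state that the authors kept genes with 8 or more reads. No source used here states whether libraries were stranded, so genes that overlap on opposite strands cannot be told apart. The authors deposited a table of 15896 genes with TMM normalized CPM, in which 1 read had been added to each estimated count. The TPM values deposited by the authors in the same table sum to between 98913 and 99722 per library. Columns of the authors' own comparisons were not used. They hold deposited p-values with their FDR and q-value forms, a ratio and fold change per comparison computed by the authors, and a signal per group that the authors give as least squares means.

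Tested were the 13050 genes on chromosomes 1 to 22, X or MT that reached 1 CPM in 3 or more of the 18 libraries. The 476 rows on the Y chromosome or other contigs were left out. The log2 values (with 1 added) were fitted in limma 3.58.1 (R 4.3.3) with 6 group means over all 18 libraries and trend and robust moderation. Benjamini-Hochberg adjustment ran over all genes, and a call required an adjusted p under 0.05 together with 1.5-fold. Between 74.8% and 77.3% of low values were whole multiples of 1 read at a tolerance of 0.01, so no count model was used. In data simulated for the 24 h comparison over 12855 genes, calls were made for 98% of genes given a 2-fold change and 47% of those given a 1.5-fold change. Each fold was given to 100 genes with a mean of at least 5 CPM, and 1 setting of the spread served all genes and libraries. A given change of 1.5-fold lies at the limit of the call itself. The adjusted p alone was passed by 86% of the 1.5-fold genes, and 0 false calls were made. Whether these shares hold in the measured libraries, for genes of low level or with an uneven response between libraries, was not tested.

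Named genes are the 15 largest rises and falls with separate groups and a higher group of at least 5 CPM on average, up to 5 members of each list by adjusted p, and genes the study names. Other genes are said to have been named after their values were seen. The members and lists were chosen with earlier results of these data known, and lists are described by counts and medians without a test. Genes of uncertain copies were found by spread within a group or by disagreement of TMM and TPM values. Promoter windows are from RefSeq. Alternatives varied the pseudocount (0.1 or 5), the filter, the unit, the scaling, the moderation, the thresholds, library weights, a replicate block and the libraries in the fit, and, after the data were seen, left out genes of uncertain copies. Results for a few genes are not reported here.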

Additional observations from a re-analysis of the deposited data

Results flagged for a closer look

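The response to Ad-TEADi differed between times by a test of the difference itself for 194 genes between 24 h and 12 h and for 797 genes between 48 h and 24 h. Among the genes called at 24 h, only GOLGA6L4 and TGM2 had a 48 h response that was called smaller. For GOLGA6L4 the 48 h response minus the 24 h response was -0.62 on the log2 scale, and for TGM2 it was 0.65.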

How the results depend on the processing

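All 55 called genes among the 180 named kept their direction under the alternatives that tested them. With a pseudocount of 5, 15 of the 55 lost their call, VGLL1 and NOTCH3 among them. The uncalled MITF, MT-CO2 and MT-ND6, all near 0, changed sign when single libraries were left out. The 233 calls at 24 h (154 higher, 79 lower) became 376 (254, 122) with a pseudocount of 0.1, 90 (51, 39) with a pseudocount of 5, 130 (83, 47) with a mean level of at least 10 CPM, and 34 (23, 11) at an adjusted p under 0.01 and 2-fold. Leaving out a library gave between 203 and 339 calls, between 139 and 219 higher and between 64 and 120 lower, the highest without Ad-TEADi replicate 1. Median centring gave 173 higher and 72 lower and TPM values 108 and 57, 132 of them among the 233. The 194 genes whose response differed between 24 h and 12 h became 64 with a pseudocount of 5, 90 with the mean level filter, 123 with TPM values and 28 at the stricter thresholds, and the 797 between 48 h and 24 h became 336, 392, 439 and 159 in the same order. The stricter thresholds and filters test or pass fewer genes by construction, and the cause of the other differences was not tested. Leaving out genes of uncertain copies, chosen after seeing the data, gave 232 calls. Libraries of the same replicate number correlated at -0.051, 0.13 and 0.199 in their deviations, so the numbers were not taken to pair them, and a fit with a replicate block gave 233 calls, 231 of them shared. Depth limits genes near 1 CPM, where 1 read is worth between 0.03387 and 0.05705 CPM at 24 h.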
